A study of Homo sapiens with 4 samples.

Results

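The *ZBTB*, *ZSCAN* and *ZKSCAN* genes encode zinc finger transcription factors and are described here in U87MG glioblastoma cells in which *KDM2B* was silenced (shKDM2B), against cells carrying a control hairpin (shControl). Members were taken by their symbol in the deposited table, and 62 of its 22578 genes matched: 38 *ZBTB*, 17 *ZSCAN* and 7 *ZKSCAN* genes. All 62 entered the test. *ZSCAN4* passed the filter on low counts only through the shKDM2B libraries, and the other 61 passed it in both groups. Of 69 annotated protein-coding genes whose symbol fits the rule, *ZBTB16*, *ZBTB32*, *ZBTB8B*, *ZSCAN1*, *ZSCAN10*, *ZSCAN18* and *ZSCAN5C* were not analysed here.

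Each group had 2 RNA-seq libraries of polyadenylated RNA, read as 50 bp single ends. Both groups were U87MG cells labelled passage 8 that received a retroviral short hairpin RNA on day 1, puromycin at 1 µg/ml from day 3, and were harvested on day 9. The shKDM2B hairpins target *KDM2B*, and the shControl hairpin targets firefly luciferase, which these cells lack; the sources used here do not tell which *KDM2B* hairpin went into which library. The replicates are described as biological, but whether they came from separate transductions is not stated, so the p-values refer to the library-to-library spread alone.

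All 3 families have a run of C2H2 zinc fingers that reads DNA and differ in what precedes it. ZBTB proteins carry a BTB domain, which forms dimers and recruits corepressors such as the NCOR and BCOR complexes. ZSCAN proteins carry a SCAN domain, which pairs them with other SCAN proteins, and ZKSCAN proteins add a KRAB domain, which recruits TRIM28 (KAP1) and heterochromatin factors. KDM2B removes methyl groups from H3K36 and binds unmethylated CG dinucleotides through its CxxC finger.

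To give the sequence context, the 250 bases before the transcription start are printed for 5 of the called members: those of largest change in each direction and others with a RefSeq entry that differ in CG content. They come from RefSeq on GRCh38.p14, run 5′ to 3′ along the gene's strand, and have each CG dinucleotide in capitals; of genes with several starts, the one with most CG is shown.
ZBTB18 (chr1:244048403-244048652, forward strand): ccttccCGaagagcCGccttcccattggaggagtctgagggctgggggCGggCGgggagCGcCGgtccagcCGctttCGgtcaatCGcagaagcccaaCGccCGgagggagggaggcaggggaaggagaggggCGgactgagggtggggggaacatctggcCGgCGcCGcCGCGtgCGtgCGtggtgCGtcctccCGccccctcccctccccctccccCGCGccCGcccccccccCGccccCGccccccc
ZBTB21 (chr21:42010361-42010610, reverse strand): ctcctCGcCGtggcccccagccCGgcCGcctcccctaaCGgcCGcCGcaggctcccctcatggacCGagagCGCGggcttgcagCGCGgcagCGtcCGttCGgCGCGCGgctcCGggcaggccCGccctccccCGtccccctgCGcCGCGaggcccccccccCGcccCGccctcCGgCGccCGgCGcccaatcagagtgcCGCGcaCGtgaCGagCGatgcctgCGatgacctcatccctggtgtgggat
ZBTB20 (chr3:115147289-115147538, reverse strand): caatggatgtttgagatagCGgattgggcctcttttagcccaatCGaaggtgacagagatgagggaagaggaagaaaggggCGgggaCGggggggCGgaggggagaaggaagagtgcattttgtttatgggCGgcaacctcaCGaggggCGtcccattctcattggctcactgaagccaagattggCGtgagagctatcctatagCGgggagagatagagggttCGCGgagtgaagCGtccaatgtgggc
ZSCAN31 (chr6:28336135-28336384, reverse strand): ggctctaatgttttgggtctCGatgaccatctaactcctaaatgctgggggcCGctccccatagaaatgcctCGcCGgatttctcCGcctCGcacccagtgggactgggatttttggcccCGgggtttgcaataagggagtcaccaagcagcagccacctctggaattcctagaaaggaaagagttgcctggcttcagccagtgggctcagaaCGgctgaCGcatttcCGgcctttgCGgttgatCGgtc
ZSCAN4 (chr19:57668685-57668934, forward strand): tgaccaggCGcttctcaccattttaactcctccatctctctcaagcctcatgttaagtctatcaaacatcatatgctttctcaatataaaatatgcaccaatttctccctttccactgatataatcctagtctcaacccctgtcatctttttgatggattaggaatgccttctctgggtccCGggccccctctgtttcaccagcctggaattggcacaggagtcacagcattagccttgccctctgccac

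These runs hold 26 CG in *ZBTB18* and 36 in *ZBTB21*, which were lower in shKDM2B, and 13 in *ZBTB20*, 12 in *ZSCAN31* and 2 in *ZSCAN4*, which were higher. The genes were picked partly for their CG content, so these counts do not compare the directions. The start with fewest CG holds 0 in *ZBTB18*, 1 in *ZBTB20* and 3 in *ZSCAN31*. The *ZBTB18* run also holds ACATCTG, a core described for the ZBTB18 protein itself, at bases 153 to 159.

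The libraries held 33770421 and 33330886 counts in shKDM2B and 31433165 and 30470803 in shControl. *KDM2B* itself (reverse strand, chromosome 12 of GRCh37, 121866899 to 122018928) had 520 and 465 counts in shKDM2B and 1257 and 1253 in shControl, with a log2 fold change of -1.60 ± 0.06 (standard error, SE) and, by the edgeR quasi-likelihood test, an adjusted p of 3.38e-19. Of the glial markers, *GFAP* was higher, with 168 and 172 counts in shKDM2B and 77 and 68 in shControl (log2 fold change 0.98, called in 12 of 12 refits). *VIM*, the vimentin gene, was lower, with 88536 and 87853 counts in shKDM2B and 132879 and 130857 in shControl (log2 fold change -0.83, called in 11 of 12 refits). *NES* and *OLIG2* had log2 fold changes of -0.18 and 0.00, *S100B* and *SOX2* were not analysed here, and the part of the glial markers in the members' changes was not tested. Of markers of other cells, the leukocyte gene *PTPRC* had 3 to 10 counts per library. The neuronal gene *SYT1* had 305 and 284 counts in shKDM2B and 286 and 273 in shControl, and *RBFOX3* had 11 and 15 in shKDM2B and 15 and 13 in shControl. Neither was called. The epithelial gene *EPCAM* was higher, with 40 and 45 counts in shKDM2B and 22 and 21 in shControl (log2 fold change 0.73, called in 7 of 11 refits). The part of these markers in the members' changes was not tested. Replicate libraries were further apart than sampling allows, with a median chi-square per gene of 0.593 in shKDM2B and 0.649 in shControl, where sampling alone gives 0.455.

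Most members differed little between the groups. Genes counted as called when the adjusted p was at most 0.05 and the groups differed by 1.5-fold or more; 5 members were higher and 3 lower in shKDM2B, together 12.9% of the 62. With DESeq2, 3 members and 2162 of all genes tested were higher, against 5 members and 2887 genes with edgeR. The number lower was 3 members with both tools, with 1275 genes by DESeq2 and 1478 by edgeR. Over the 21783 genes tested, 20.0% were called, 13.3% as higher and 6.79% as lower. Of the 61 members that passed the filter on low counts in both groups, which leaves out *ZSCAN4*, 4 were higher and 3 lower, or 11.5%. The median log2 fold change of the members was -0.01, against 0.01 over all genes, and the interquartile range of the members was 0.33 on the log2 scale, against 0.60 over all genes. Of the 54 members not called, 47 had a 95% interval of the fitted fold change inside 1.5-fold in both directions, and for *ZBTB39*, *ZBTB5*, *ZKSCAN7*, *ZSCAN23*, *ZSCAN16*, *ZSCAN32* and *ZBTB46* the interval reached it. These intervals use 26.3 degrees of freedom, of which 2 come from the libraries and the rest are borrowed from the spread over all genes. In these bulk libraries, fewer cells that express a gene and less RNA per cell cannot be told apart.

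By the adjusted p alone, 15 members were higher and 13 lower, 45.2% of the members against 57.9% of all genes tested. The 2 shKDM2B libraries lay above both shControl libraries for 20 members and below both for 19, together 39 of 62, where 77.6% of all genes did not overlap (39.4% above and 38.2% below). Directions of the small differences depend on the scaling. TMM scaling put the ribosomal protein genes at a median log2 fold change of -0.35; centring on those genes moved the median of all genes from 0.01 to 0.36 and that of the members to 0.33, and then 13 members were called higher and 1, *ZBTB18*, lower. Of the 13 members lower by adjusted p, 9 had a positive fold change with that centring, and *ZBTB12*, *ZBTB18*, *ZBTB21* and *ZBTB46* stayed negative. The signs of the 8 called members could not change here, since the largest shift tried, 0.35, is smaller than the fold threshold of 0.585 on the log2 scale.

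**Figure D1:**
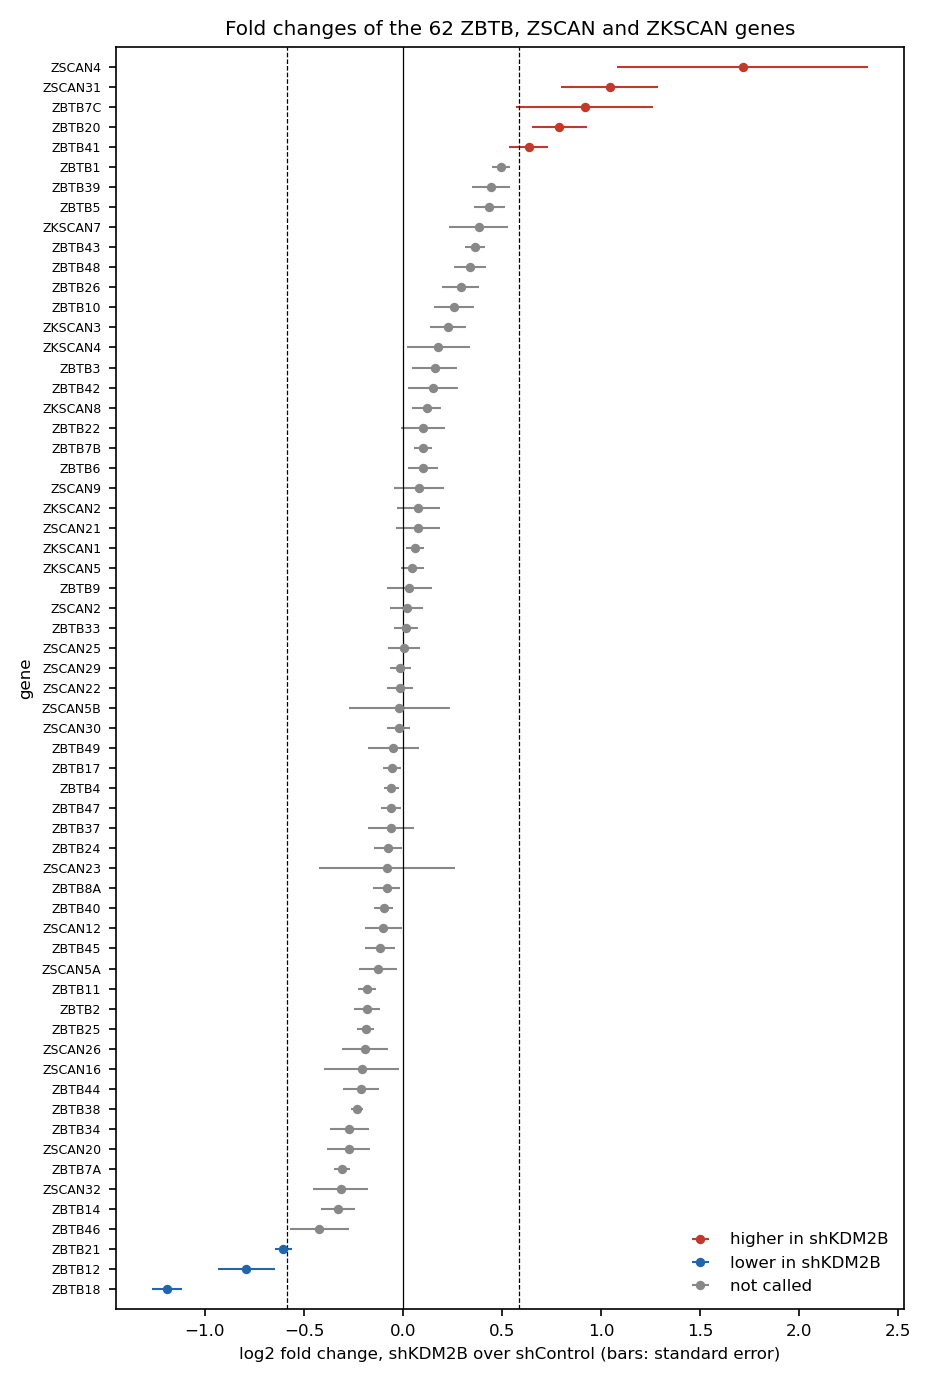
Fitted log2 fold change (shKDM2B over shControl) of the 62 genes, with standard errors as bars and 1.5-fold as dashed lines. Called genes are colored: 5 lie to the right and 3 to the left, and the fold changes run between -1.19 for *ZBTB18* and 1.71 for *ZSCAN4*; centring on ribosomal protein genes moves the points to the right and leaves 4 instead of 32 below 0.

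The *ZBTB* genes held most of the members' RNA, with a summed expression of 953 and 947 CPM (counts scaled to library size with TMM) in shKDM2B and 1017 and 1016 in shControl. The *ZSCAN* genes summed to 148 and 154 CPM in shKDM2B and to 152 and 159 in shControl, and the *ZKSCAN* genes to 131 and 127 CPM in shKDM2B and to 124 and 118 in shControl. By TMM scaling the *ZBTB* sum was lower in both shKDM2B libraries, the *ZSCAN* sums overlapped, and the *ZKSCAN* sum was higher in both; the log2 ratio of the *ZBTB* sums was -0.10, or 0.25 when centred on ribosomal protein genes. Calls were 3 higher and 3 lower among the *ZBTB* genes and 2 higher among the *ZSCAN* genes. Of these 2, *ZSCAN4* passed the filter on low counts only through the shKDM2B libraries. None of the 7 *ZKSCAN* genes was called, and 2 were higher by the adjusted p alone, or 28.6% against 57.9% of all genes tested. The shares called were 15.8% of the *ZBTB* and 11.8% of the *ZSCAN* genes, against 20.0% of all genes tested, and a difference between the families was not tested.

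*ZBTB18* fell most. It encodes a BTB repressor, also called RP58, that is needed for cortical neuron development in the mouse and has been studied in glioblastoma as a repressor of mesenchymal genes. It had 9.40 and 9.80 CPM in the shKDM2B libraries, against 22.6 and 21.3 CPM in the shControl libraries (raw counts 332 and 342, against 680 and 619). Both shKDM2B libraries were far below both shControl libraries, and the groups did not overlap. The fitted difference was -1.19 ± 0.08 (SE) on the log2 scale, with an adjusted p of 1.10e-13 by the edgeR quasi-likelihood test, and it lay between -1.24 and -0.85 over 12 refits with another scaling, filter, tool or set of libraries, in all of which the gene was called. *ZBTB18* is at chr1:244211849-244220778 of GRCh37 (forward strand), and shares no exonic bases with another gene.

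The ACATCTG core was found in the promoter of 1 member, *ZBTB18*, of the 54 with a RefSeq promoter. Searched on both strands (reverse complement CAGATGT), it was present in 3.42% of the 27305 genes with such a promoter. Of the 330 tested genes that hold it, 16.7% were higher and 6.67% lower in shKDM2B, and of the 11512 that do not, 12.4% were higher and 6.78% lower. A match is a description of the letters and not of binding.

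*ZBTB21* and *ZBTB12* were the other members called lower. *ZBTB21*, whose product binds the ZBTB14 protein, had 37.7 and 37.0 CPM in shKDM2B and 58.4 and 55.2 CPM in shControl, with groups well apart. The fit put the change at -0.60 ± 0.04 (SE) on the log2 scale, with an adjusted p of 8.58e-13 by the edgeR quasi-likelihood test, close to the 1.5-fold threshold. It went under that threshold at -0.57 without shControl replicate 1, at -0.58 with a count minimum of 50, at -0.47 without TMM and at -0.26 when centred on ribosomal protein genes. *ZBTB21* is at chr21:43406940-43430496 of GRCh37 (reverse strand).

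*ZBTB12* lies in the major histocompatibility complex on chromosome 6 (reverse strand, 31867390 to 31869863 of GRCh37), where the complement gene *C2* covers 7.18% of its exonic bases. It had 2.86 and 2.29 CPM in shKDM2B and 4.26 and 4.67 CPM in shControl, again without overlap. This came to -0.79 ± 0.14 (SE) on the log2 scale, with an adjusted p of 2.87e-05 by the edgeR quasi-likelihood test, and -0.45, under the fold threshold, when centred on ribosomal protein genes.

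Among the 3 *ZBTB* genes called higher, *ZBTB41* had the most RNA. It had 12.0 and 12.7 CPM in shKDM2B, against 7.36 and 8.55 CPM in shControl, so that the lower shKDM2B library stood clear of the higher shControl one. The estimate was 0.63 ± 0.10 (SE) on the log2 scale, with an adjusted p of 2.37e-06 by the edgeR quasi-likelihood test, and it was 0.53, under the fold threshold, without shControl replicate 1. *ZBTB41* is at chr1:197122812-197170423 of GRCh37 (reverse strand), and shares no exonic bases.

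*ZBTB20* encodes a repressor known in the mouse for silencing alpha-fetoprotein in the liver and for its role in the hippocampus. It had 5.32 and 4.56 CPM in shKDM2B and 3.00 and 2.71 CPM in shControl, higher in both shKDM2B libraries. The difference was 0.79 ± 0.14 (SE) on the log2 scale, with an adjusted p of 1.90e-05 by the edgeR quasi-likelihood test, and the gene was called in all of 12 refits. It is at chr3:114033347-114866139 of GRCh37 (reverse strand), and 43.0% of its exonic bases are shared with ENSG00000259976 on the same strand, so its count is uncertain where reads could be split between them.

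*ZBTB7C*, a paralog of *ZBTB7A* on the reverse strand of chromosome 18 (45553043 to 45937123 of GRCh37), rose on few counts. Its raw counts were 27 and 27 in shKDM2B and 15 and 9 in shControl, a ratio of 1.90 with an exact 95% counting interval of 1.15 to 3.21, which covers counting error only. The fitted difference was 0.92 ± 0.35 (SE) on the log2 scale, with an adjusted p of 0.0257 by the edgeR quasi-likelihood test. The call was lost without shControl replicate 2 (log2 fold change 0.62, adjusted p = 0.225 from edgeR), without shKDM2B replicate 1 (0.92, adjusted p = 0.0604), without shKDM2B replicate 2 (0.91, adjusted p = 0.0668) and with DESeq2 (0.92, adjusted p = 0.213). Over its 11 refits the adjusted p ran between 0.00206 and 0.225, and at these counts the change is not firmly shown.

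*ZSCAN4* had the largest fold change of the members and the fewest counts, and passed the filter on low counts only through the shKDM2B libraries. In mouse embryonic stem cells and early embryos its relatives mark a transient state and act on telomeres. Its raw counts were 9 and 15 in shKDM2B and 2 and 4 in shControl, a ratio of 3.37 (exact 95% counting interval 1.34 to 10.1). In CPM this was 0.255 and 0.430 in shKDM2B and 0.067 and 0.137 in shControl, so every library was under 1 CPM although the groups did not overlap. The fit put the change at 1.71 ± 0.63 (SE) on the log2 scale, with an adjusted p of 0.0223 by the edgeR quasi-likelihood test. The call was lost without shControl replicate 1 (log2 fold change 1.29, adjusted p = 0.132 from edgeR), without shKDM2B replicate 2 (1.30, adjusted p = 0.207) and with DESeq2 (1.75, adjusted p = 0.162), within a range of adjusted p between 0.00496 and 0.207 over 11 refits. *ZSCAN4* is at chr19:58180303-58190520 of GRCh37 (forward strand).

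*ZSCAN31* rose about 2.06-fold and was the steadier of the *ZSCAN* calls. Its raw counts were 53 and 50 in shKDM2B and 18 and 24 in shControl, so the lower shKDM2B library stood well above the higher shControl one. This came to 1.04 ± 0.25 (SE) on the log2 scale, with an adjusted p of 0.000661 by the edgeR quasi-likelihood test, and it was between 0.83 and 1.39 over 12 refits, in all of which the gene was called. *ZSCAN31* is at chr6:28292470-28324048 of GRCh37 on the reverse strand, where 10.8% of its exonic bases are shared with ENSG00000290051 on the opposite strand.

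**Figure D2:**
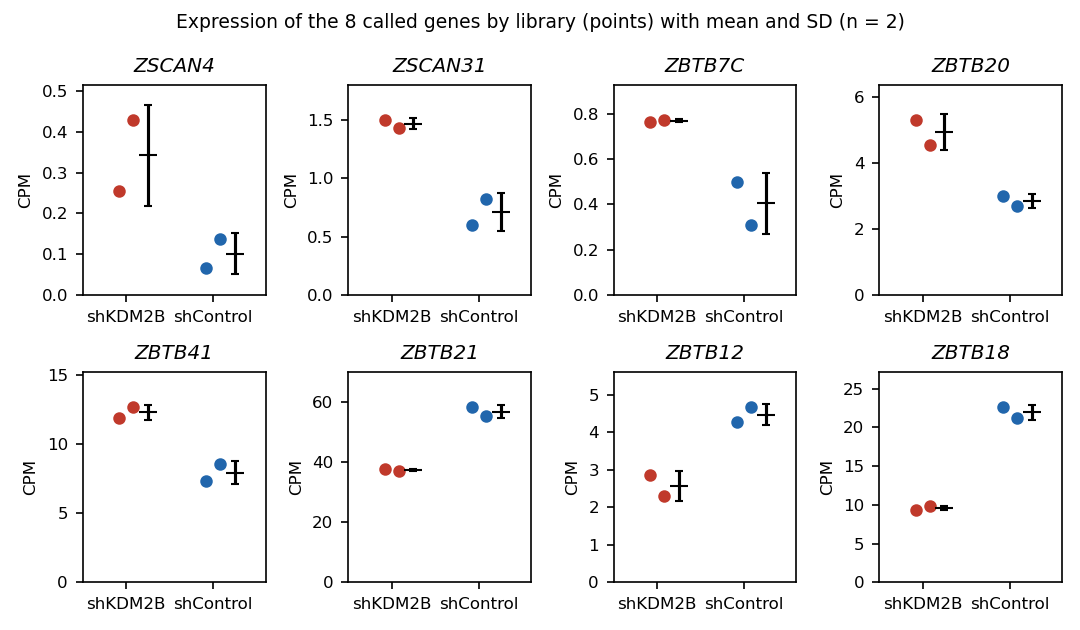
Expression in CPM of the 8 called genes in each library (points), with the mean and SD of each group beside them (n = 2 libraries). In every panel both shKDM2B libraries lie on the same side of both shControl libraries: above in *ZSCAN4*, *ZSCAN31*, *ZBTB7C*, *ZBTB20* and *ZBTB41*, below in *ZBTB21*, *ZBTB12* and *ZBTB18*.

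Among the members of few counts, *ZSCAN5B* and *ZSCAN23* were not called. *ZSCAN5B* had 41 and 34 counts in shKDM2B and 25 and 39 in shControl, a ratio of 0.987 (exact 95% counting interval 0.698 to 1.40), and *ZSCAN23* had 19 and 18 counts in shKDM2B and 17 and 16 in shControl, a ratio of 0.944 (0.575 to 1.56). A 1.5-fold difference of *ZSCAN23* was not detectable at this depth. At the other end, 29 members had more than 10 CPM in every library, and 3 had less than 1 CPM in every library.

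The most abundant members were little changed. Per kilobase of exon, the highest *ZBTB* levels were 15.9 CPM for *ZBTB38*, 14.8 for *ZBTB4* and 9.25 for *ZBTB7B*, as means over the 4 libraries. *ZBTB38* and *ZBTB4* encode BTB proteins of the Kaiso group, which bind methylated DNA, and *ZBTB7B* encodes ThPOK, known for directing CD4 T cell fate. *ZBTB38* alone made up 18.0% of the members' summed CPM.

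*ZBTB38* had 207 and 211 CPM in shKDM2B and 246 and 244 CPM in shControl, without overlap. The estimate was -0.23 ± 0.03 (SE) on the log2 scale, with an adjusted p of 1.06e-07 by the edgeR quasi-likelihood test, under the fold threshold, and turned to 0.11 when centred on ribosomal protein genes. *ZBTB4* had 91.3 and 86.3 CPM in shKDM2B and 90.4 and 94.7 CPM in shControl, which overlapped, with a log2 fold change of -0.06 that changed sign with the scaling. *ZBTB7B* had 40.6 and 41.8 CPM in shKDM2B and 37.5 and 39.4 CPM in shControl, with a log2 fold change of 0.10 (edgeR quasi-likelihood test, adjusted p = 0.0489). None of the 3 reached 1.5-fold under any of the refits.

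*ZBTB1*, known for its part in lymphoid development, was the *ZBTB* gene of largest change under the fold threshold. It had 48.9 and 50.6 CPM in shKDM2B and 34.1 and 36.6 CPM in shControl, clearly apart. The difference was 0.49 ± 0.04 (SE) on the log2 scale, with an adjusted p of 1.44e-10 by the edgeR quasi-likelihood test, and it passed the fold threshold at 0.63 without TMM and at 0.84 when centred on ribosomal protein genes.

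Some members are known for named partners or targets, and these were set beside each other by role, with their values already seen. *ZBTB17* encodes MIZ1, a partner of MYC, and *ZBTB17* had 32.9 and 34.6 CPM in shKDM2B and 35.5 and 34.6 CPM in shControl (log2 fold change -0.06), while *MYC* had a log2 fold change of -0.45 (edgeR quasi-likelihood test, adjusted p = 7.68e-10). *ZBTB33* encodes Kaiso, a partner of p120 catenin; *ZBTB33* had 24.0 and 23.0 CPM in shKDM2B and 24.2 and 22.3 CPM in shControl (log2 fold change 0.02), and *CTNND1*, the p120 gene, had a log2 fold change of 0.30 (edgeR quasi-likelihood test, adjusted p = 4.34e-09), although 39.1% of its exonic bases are shared with ENSG00000288534. The groups of *ZBTB33* overlapped, and those of *ZBTB17* met at 34.6 CPM.

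*ZBTB24* is, with *DNMT3B*, *CDCA7* and *HELLS*, a gene of the ICF immunodeficiency syndrome, in which DNA methylation of satellite repeats is lost. *ZBTB24* had 19.2 and 17.3 CPM in shKDM2B and 18.7 and 19.8 CPM in shControl, which overlapped. *HELLS*, a chromatin remodeler, fell to 30.6 and 30.3 CPM in shKDM2B, against 47.5 and 45.0 CPM in shControl (log2 fold change -0.60, with edgeR's quasi-likelihood adjusted p = 2.60e-12), and was the 1 gene called among the 12 tested partners and targets. It went under 1.5-fold without shControl replicate 1 (-0.56), with a count minimum of 50 (-0.58), without TMM (-0.47) and centred on ribosomal protein genes (-0.26). The share called was 8.33%, against 20.0% of all genes tested. Of these 12, 4 were higher and 6 lower by the adjusted p alone, or 83.3% against 57.9% of all genes tested. Their median log2 fold change was -0.13, and their median level was 40.9 CPM, against 12.7 CPM over all genes tested.

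The abundant *ZSCAN* genes had overlapping or nearly equal levels in the groups. Their highest levels per kilobase of exon were 4.38 CPM for *ZSCAN22*, 3.82 for *ZSCAN29* and 3.12 for *ZSCAN30*. *ZSCAN22* had 20.3 and 20.2 CPM in shKDM2B and 19.6 and 21.3 CPM in shControl, *ZSCAN29* had 25.6 and 24.99 CPM in shKDM2B and 25.7 and 25.4 CPM in shControl, and *ZSCAN30* had 23.6 and 25.9 CPM in shKDM2B and 25.9 and 24.4 CPM in shControl. Their log2 fold changes were -0.01, -0.01 and -0.02, each inside 1.5-fold with its 95% interval, and their signs changed with the scaling and the filter.

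*ZSCAN20* was the *ZSCAN* gene that passed the adjusted p without the fold. It had 6.23 and 6.10 CPM in shKDM2B and 7.26 and 7.66 CPM in shControl, without overlap. The fitted difference was -0.27 ± 0.11 (SE) on the log2 scale, with an adjusted p of 0.0310 by the edgeR quasi-likelihood test, and 0.07 when centred on ribosomal protein genes. It missed the adjusted p without shControl replicate 2 (adjusted p = 0.118 from edgeR), without either shKDM2B replicate (0.102 without replicate 1 and 0.157 without replicate 2), without TMM (0.262) and with DESeq2 (0.184), within a range between 0.0198 and 0.555 over its refits. Of the 17 *ZSCAN* genes, 14 did not pass the adjusted p in either direction. The share that passed was 17.6%, against 57.9% of all genes tested. Their median level was 6.61 CPM and their median SE 0.110, against 12.7 CPM and 0.084 over all genes tested. The part of level and SE in this share was not tested.

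The 7 *ZKSCAN* genes all had fold changes above 0 by TMM scaling, between 0.05 and 0.38 on the log2 scale, and none was called. Per kilobase of exon, *ZKSCAN1* had 5.87 CPM, *ZKSCAN5* 4.15 and *ZKSCAN3* 2.31. *ZKSCAN1* had 63.1 and 60.6 CPM in shKDM2B and 62.5 and 56.2 CPM in shControl, and *ZKSCAN5* had 26.5 and 24.5 CPM in shKDM2B and 23.7 and 25.7 CPM in shControl. The groups of both genes overlapped, and their fold changes turned negative when 1 library was left out (-0.02 for *ZKSCAN1* without shControl replicate 2, and -0.02 for *ZKSCAN5* without shControl replicate 1).

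*ZKSCAN3*, which encodes a repressor of autophagy genes, had 12.7 and 11.3 CPM in shKDM2B and 10.5 and 9.93 CPM in shControl, higher in both shKDM2B libraries. The fit put the change at 0.23 ± 0.09 (SE) on the log2 scale, with an adjusted p of 0.0325 by the edgeR quasi-likelihood test. It missed the adjusted p without shControl replicate 2 (0.19, adjusted p = 0.143 from edgeR), without shKDM2B replicate 1 (0.14, adjusted p = 0.365) and with DESeq2 (adjusted p = 0.188), within a range between 2.70e-06 and 0.365 over its refits. The autophagy genes listed as its targets did not reach 1.5-fold: *WIPI2* had a log2 fold change of -0.33, *MAP1LC3B* -0.14 and *ULK1* -0.11, and all 3 turned positive (0.02, 0.20 and 0.23) when centred on ribosomal protein genes. *ZKSCAN7* had 3.40 and 3.78 CPM in shKDM2B and 3.13 and 2.37 CPM in shControl, with a log2 fold change of 0.38 ± 0.15 (SE) and, by the edgeR quasi-likelihood test, an adjusted p of 0.0326, and was called only without shControl replicate 1, at 0.60, and when centred on ribosomal protein genes, at 0.73. It missed the adjusted p without shControl replicate 2 (0.20, adjusted p = 0.363 from edgeR), without shKDM2B replicate 2 (0.30, adjusted p = 0.151) and with DESeq2 (adjusted p = 0.243), within a range between 0.000119 and 0.363 over its refits.

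Of the 24 *ZSCAN* and *ZKSCAN* genes, 9 lie in 1 cluster on chromosome 6, chr6:28075467-28411279 of GRCh37, a span of 335.8 kb. *ZSCAN31* was the 1 gene called there, or 11.1% against 20.0% of all genes tested. The other 8 had log2 fold changes between -0.21 for *ZSCAN16* and 0.23 for *ZKSCAN3*. By the adjusted p alone, 2 of the 9 genes were higher, or 22.2% against 57.9% of all genes tested. The summed expression of the cluster was 55.2 and 55.3 CPM in shKDM2B and 52.9 and 52.5 CPM in shControl. *ZSCAN31* and *ZKSCAN3*, which lie on opposite strands, overlap by 6325 bases of their gene bodies and had log2 fold changes of 1.04 and 0.23.

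**Figure D3:**
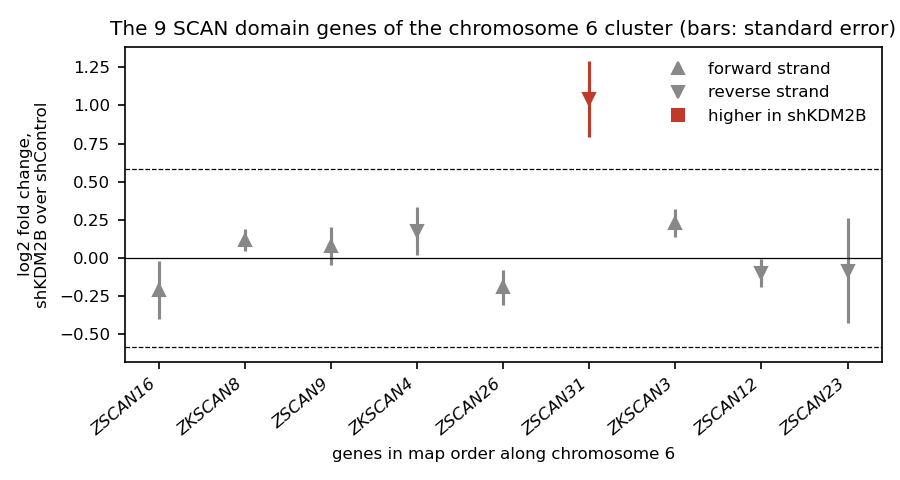
Fitted log2 fold change (shKDM2B over shControl) of the 9 cluster genes in map order, with standard errors as bars, strands as the direction of the triangles and 1.5-fold as dashed lines. *ZSCAN31* stands above the line at 1.04 and the other 8 lie between the lines; the 4 below 0 turn positive when centred on ribosomal protein genes.

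Promoter CG content was compared because KDM2B binds CG through its CxxC finger. Of the 62 members, 54 had a RefSeq promoter, and the highest CG count over a gene's starts had a median of 21 in the 250 bases, against 22 over the 11842 tested genes with a promoter. The 4 members called higher that had an entry held 2 (*ZSCAN4*), 10 (*ZBTB7C*), 12 (*ZSCAN31*) and 13 (*ZBTB20*), and the 3 called lower held 21 (*ZBTB12*), 26 (*ZBTB18*) and 36 (*ZBTB21*). These highest counts did not overlap, and the 47 members that were not called ranged over 7 to 55. By the lowest count over a gene's starts the groups overlapped, at 0 to 3 in the 4 called higher and at 0 (*ZBTB18*), 21 and 36 in the 3 called lower. With 7 genes this is a description, and *ZBTB41*, which rose, has no entry. *ZSCAN4* passed the filter on low counts only through the shKDM2B libraries.

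The same counts were taken over all genes tested. Those called higher had a median of 18 CG and those called lower a median of 23. Of the 1332 tested genes with at most 5 CG at every start, 22.7% were higher and 6.83% lower in shKDM2B. Of the 6815 with at least 20 CG at a start, 9.85% were higher and 7.28% lower.

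**Figure D4:**
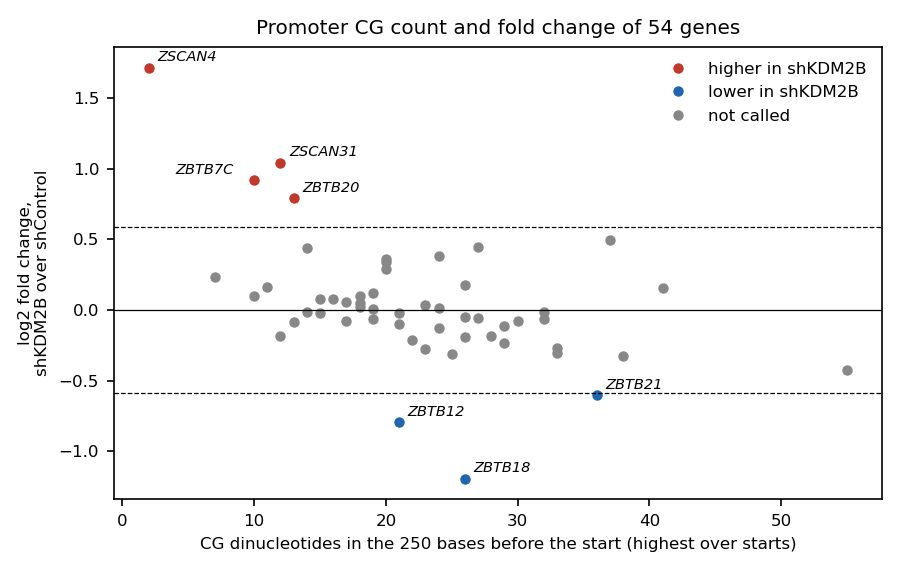
CG dinucleotides in the 250 bases before the start (x axis, highest count over a gene's starts) against the fitted log2 fold change (shKDM2B over shControl, y axis) of the 54 genes with a RefSeq promoter. By this highest count the 4 genes called higher lie at 2 to 13 CG and the 3 called lower at 21 to 36, with the 47 not called between 7 and 55; by the lowest count over starts the called groups overlap.

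Of 13 genes for corepressors that BTB domains recruit and for CUL3, a ubiquitin ligase scaffold that also binds BTB domains, none was called. The share called over all genes tested was 20.0%. By the adjusted p alone 5 were higher and 7 lower, together 92.3% against 57.9% of all genes tested, and the median log2 fold change was -0.19. The median level was 76.1 CPM and the median SE 0.039, against 12.7 CPM and 0.084 over all genes tested. The part of level and SE in the share that passed was not tested. *GPS2* and *TBL1XR1*, parts of the NCOR complex, had log2 fold changes of -0.42 (adjusted p = 2.51e-13) and -0.55 (adjusted p = 1.04e-12), and *BCOR* had 0.52 (adjusted p = 5.45e-11), all from edgeR's quasi-likelihood test. *BCOR* and *BCORL1* (log2 fold change 0.52 each) were called in 2 of 12 refits, and *HDAC1* (0.26) in 1 of 12. Their highest values, 0.87, 0.87 and 0.61, came with centring on ribosomal protein genes, which raises the fold change of every gene. *BCORL1* and *HDAC1* were chosen after their values were seen. *GPS2* shares 44.7% of its exonic bases with ENSG00000261915.

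Of 11 KRAB corepressor and heterochromatin genes, 1 was called, or 9.09% against 20.0% of all genes tested. *CBX5*, which encodes HP1 alpha, rose to 159 and 159 CPM in shKDM2B, against 96.1 and 98.2 CPM in shControl (log2 fold change 0.71, with edgeR's quasi-likelihood adjusted p = 1.50e-16). Its relative *CBX3*, for HP1 gamma, had a log2 fold change of -0.58, just under the fold threshold and past it in 5 of 12 refits, and *TRIM28*, the KRAB corepressor, had -0.43. *TRIM28* had 207 and 206 CPM in shKDM2B and 272 and 284 CPM in shControl, without overlap, as had 77.6% of all genes tested. Its log2 fold change was -0.08 when centred on ribosomal protein genes, and it was called in 0 of 12 refits. Of the 11 genes, 3 were higher and 6 lower by the adjusted p alone, or 81.8% against 57.9% of all genes tested. The median level of the 11 was 96.3 CPM and their median SE 0.036, against 12.7 CPM and 0.084 over all genes tested.

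Genes with the same domains but other names were compared as well. Of 24 SCAN domain genes outside the symbol rule, 2 were higher and none lower, or 8.33% called against 20.0% of all genes tested. *ZNF24*, known for its part in cell proliferation, had 2820 and 2770 counts in shKDM2B and 1359 and 1324 in shControl. Its log2 fold change was 0.81 (edgeR quasi-likelihood test, adjusted p = 3.33e-16). *ZNF483* had a log2 fold change of 0.60, or 0.55 and under 1.5-fold without shKDM2B replicate 1. *ZNF232* had -0.58, just under the fold threshold and past it in 5 of 12 refits. Of 7 BTB zinc finger genes outside the rule, 1 was called, or 14.3% against 20.0% of all genes tested. This was *HIC1*, a tumor suppressor gene often silenced by methylation in cancer, which passed the filter on low counts only through the shKDM2B libraries, with 28 and 20 counts in shKDM2B and 1 and 0 in shControl, a ratio of 40.4 (exact 95% counting interval 6.92 to 1630); without shControl replicate 2 the ratio was 20.5 (3.51 to 828), and without shControl replicate 1 it was at least 6.63-fold higher against a floor of 3 counts. *HIC1* shares 29.8% of its exonic bases with *SMG6* on the opposite strand, and the germinal center repressor gene *BCL6* had a log2 fold change of -0.57.

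Zinc finger genes named *ZNF* with a number of at least 500, which include many KRAB proteins, served as a second set. Of 219 tested, 12 were higher and 6 lower in shKDM2B, or 8.22%, with a median log2 fold change of 0.07. The share called among the members was 12.9%, or 11.5% without *ZSCAN4*, and the shares of both sets were below the 20.0% of all genes tested.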

How the data were processed

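RNA-seq of 4 U87MG libraries, 2 shKDM2B and 2 shControl, grouped by their labels, was analysed from the deposited expression table. As the supplement and processing notes describe, CASAVA 1.8.2 made the reads, TopHat2 2.0.11 placed them on hg19 and the authors counted them on Ensembl annotation. Its release and the strand setting are not stated in what was read here. The table of the authors gives raw counts with the 3 lanes of a library combined. It also holds normalized values (a signal: counts divided by DESeq size factors), fold changes as a ratio and as log2, and p-values, all of which the authors deposited and which were not used here.

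The 21783 genes that averaged 10 or more counts in shKDM2B or shControl were scaled by TMM and compared with edgeR 4.0.16 (R 4.3.3), by its quasi-likelihood test with Benjamini-Hochberg adjustment over all of them and 2 residual degrees of freedom. The common biological coefficient of variation was 2.62%. A call needed an adjusted p no higher than 0.05 and a 1.5-fold difference or more. edgeR stands in for the DESeq used by the study, and DESeq2 1.42.0 was an alternative. The test was first tried on simulated counts. Positions, exon lengths and shared exonic bases come from GENCODE annotation of GRCh37 (bedtools 2.31.1), and promoters from RefSeq on GRCh38.p14. Other calculations used Python 3.11.15, pandas 2.3.3 and scipy 1.17.1.

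Libraries held between 30470803 and 33770421 counts and detected between 22520 and 22574 genes. Counting intervals cover counting error only. The members and lists were chosen with earlier results of these data known. Named in full are all called members, the 3 of highest level per kilobase in each family, the largest change that passed only the adjusted p in each family, and up to 3 genes of smallest adjusted p per companion list; others are said to be chosen after their values were seen, or were named for low counts or role. Alternatives changed the scaling, filter, tool, thresholds, libraries and overlapping genes. Protein sequences were not used here.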

Additional observations from a re-analysis of the deposited data

How the results depend on the processing

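With 2 libraries a group, single libraries weigh heavily, and a lone library left in a group is assumed to vary like the others. Counts of called members ran between 3 and 4 higher and 2 and 4 lower when 1 library was left out, those of *ZSCAN* genes between 1 and 2 higher, of *ZKSCAN* genes between 0 and 1 higher, and of all genes between 2687 and 2784 higher and 1437 and 1500 lower. *ZBTB46* was then called lower without shControl replicate 2 (-0.59). Fold changes (log2) took both signs for *ZSCAN30* (-0.091 to 0.044), *ZSCAN22* (-0.075 to 0.042), *ZSCAN29* (-0.030 to 0.0032), *ZKSCAN1* (-0.017 to 0.13) and *ZKSCAN5* (-0.015 to 0.11).

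Without TMM, 938 of all genes were lower, the members' median was 0.12, and *ZBTB4* (0.071), *ZSCAN22* (0.12), *ZSCAN29* (0.12) and *ZSCAN30* (0.11) turned positive. Centred on ribosomal protein genes, 13 members were higher and 1 lower (*ZBTB* 10 and 1, *ZKSCAN* 1 higher), as were 6216 and 469 of all genes, with a members' median of 0.33; *ZBTB38* (0.11), *ZBTB4* (0.29), *ZSCAN22* (0.33), *ZSCAN29* (0.33), *ZSCAN30* (0.32) and *ZSCAN20* (0.072) turned positive. Of all calls, 66.1% were higher with TMM, 80.3% without and 93.0% centred. With a count minimum of 50, 58 members were tested, of which 3 were higher (*ZSCAN* 1) and 2 lower. Of the 17186 genes tested then, 2182 were higher and 1127 lower. At this minimum *ZSCAN22* (0.0099), *ZSCAN29* (0.012) and *ZSCAN30* (0.0028) turned positive. DESeq2 called 3 members higher (*ZSCAN* 1) and 3 lower, and 2162 of all genes higher and 1275 lower.

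With the adjusted p alone, 15 members were higher and 13 lower (*ZBTB* 11 and 12, *ZSCAN* 1 lower, *ZKSCAN* 2 higher), as were 6188 and 6416 of all genes. At 2-fold, 2 members were higher and 1 lower (*ZBTB* 0 and 1), with 1574 and 458 of all genes. With Bonferroni adjustment, 1 member was higher (*ZBTB* 1, *ZSCAN* 0), with 1568 of all genes.

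The replicate numbers did not pair the libraries (correlation 0.0524). A replicate block left 5 members higher and 3 lower, and 2927 and 1482 of all genes, and changed no member's call. Why values moved between settings was not tested.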

Other observations

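Some members that lie side by side differed in opposite directions; these pairs were chosen after their values were seen. *ZBTB1* and *ZBTB25* overlap by 1502 bases on opposite strands of chromosome 14, and their log2 fold changes were 0.49 and -0.19. *ZBTB25* had 54.2 and 51.7 CPM in shKDM2B and 62.6 and 58.1 CPM in shControl (edgeR quasi-likelihood test, adjusted p = 0.000406), and its sign turned (0.16) when centred on ribosomal protein genes. *ZBTB43* and *ZBTB34* lie 22428 bases apart on the forward strand of chromosome 9, and their log2 fold changes were 0.36 and -0.27 (edgeR quasi-likelihood test, adjusted p = 7.65e-07 and 0.0204), both under the fold threshold; centred on ribosomal protein genes they were 0.71 and 0.08. A change of scaling moves both genes of a pair nearly alike and so cannot show whether their order holds. The difference within a pair was not tested.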
